A study of Xenopus laevis with 8 samples.

Results

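The retinoic acid genes of Xenopus laevis were followed in gastrula explants with added or depleted Pinhead, the secreted product of pnhd. Members were chosen by name: every row of the count table that belongs to aldh1a2, cyp26a1, dhrs3, rdh10, rara, rarg or rxra. This gave 13 rows of 35649, from 7 genes. Many genes of this allotetraploid frog have L and S copies, called homeologs. Of the 13 rows, 4 are LOC identifiers named from RefSeq: LOC108712938 is aldh1a2.S, LOC108697667 is dhrs3.S, LOC108702480 is rara.S and LOC108699915 is rxra.S. The table also has its own rxra.S row, and a cyp26a1 row with no letter beside cyp26a1.L. Reads shared by near-identical copies could have been split between such rows, so levels of single copies are uncertain to that extent.

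Messenger RNA was sequenced from 4 groups of 2 samples. Ectoderm explants, also called animal caps, were untreated or carried 1.5 ng of RNA for Flag-Pinhead, an epitope-tagged Pinhead, and both groups are labelled stage 11. Marginal zone explants, from the equatorial belt that forms mesoderm, were untreated or came from embryos given 40 ng of PhSpMo, an oligonucleotide used to deplete Pinhead, per blastomere at the 4-cell stage. Their sample labels give stage 10.5, while the series text places them at stage 11. Both control groups are labelled untreated, so injection and treatment cannot be told apart. How many embryos or clutches stand behind a sample is not given in the sources used here, so the p-values rest on sample-to-sample spread that may be technical only.

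Retinoic acid is made from vitamin A. Retinol dehydrogenase 10 (rdh10) oxidises retinol to retinaldehyde, dhrs3 reduces retinaldehyde back to retinol, aldh1a2 oxidises retinaldehyde to retinoic acid, and cyp26a1 breaks retinoic acid down. The acid binds nuclear receptors (rara, rarg) that pair with a retinoid X receptor such as rxra on DNA, and in Xenopus gastrulae this signal takes part in the patterning of mesoderm and of the hindbrain.

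Total counts per sample ran from 12551618 to 19719311, and all 13 rows passed the filter on low counts, with between 19 counts (rxra.S) and 4489 counts (rarg.S) per sample. Levels below are CPM, counts scaled to library size after TMM normalization, and means carry the SD over 2 samples. Counts of the PhSpMo samples were as alike as repeat columns of other samples, and their columns may be crossed, so PhSpMo was counted as 1 unit with no SD. Its 2 values are shown only as deposited, and its spread is taken from the other groups. In Flag-Pinhead ectoderm pnhd transcripts, injected RNA included, took 3.18% and 5.99% of counts, and in marginal zone pnhd.L stood at 93.7 and 89.2 CPM of the total in controls against 58.8 and 55.0 CPM with PhSpMo. The S copy of pnhd (LOC108706889) stood at 79.8 and 83.6 CPM of the total in these controls against 34.1 and 38.4 CPM with PhSpMo. Early mesoderm markers followed the labels, summing to 31.8 to 34.2 CPM in control ectoderm and to 2242 to 2358 CPM in control marginal zone. No count of gsc.L was found in control ectoderm. Epidermis markers summed to 2740 to 2821 CPM in control ectoderm and still to 1449.5 to 1471 CPM in control marginal zone. Summed neural plate markers were higher in control marginal zone, at 1184 to 1228 CPM against 756 to 777 CPM. Of 8 such rows, 6 were called higher there and 1 lower by the edgeR test described below. By level sox2.L went the other way from the sum, at 36.0 and 40.9 CPM in control marginal zone against 44.3 and 52.2 CPM in control ectoderm. Levels of different genes are not compared, since CPM takes no account of transcript length.

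Control marginal zone held more aldh1a2, cyp26a1 and dhrs3 RNA than control ectoderm and less of rdh10.S, with the cyp26a1 rows 5.74-fold and 5.97-fold higher and aldh1a2 rows 2.20-fold and 3.39-fold higher. Tissue, stage label and experiment cannot be told apart between these control groups, so differences called between the tissues below are differences between these groups. In Flag-Pinhead ectoderm both aldh1a2 copies and rara.S rose, rdh10.L and dhrs3.S fell, and neither cyp26a1 row passed the test. With PhSpMo, rows of rdh10, dhrs3, aldh1a2, cyp26a1 and rarg were all lower than in control marginal zone. Calls come from edgeR's quasi-likelihood test at an adjusted p under 0.05 over 22241 genes. In marginal zone against ectoderm, 7 member rows were higher and 2 lower, where 52.8% of all tested genes were called, 26.5% higher and 26.3% lower. With Flag-Pinhead RNA 3 rows rose and 2 fell, against 27.4% of all genes called, 15.5% higher and 11.9% lower. With PhSpMo 9 rows fell and none rose, against 18.7% of all genes called, 10.5% lower and 8.22% higher. The median log2 difference of the 13 rows was 0.57 between the tissues, -0.045 with Flag-Pinhead and -0.67 with PhSpMo, beside -0.0029, 0.00031 and 0 for all tested genes. Control ectoderm enters the tissue and Flag-Pinhead comparisons and control marginal zone the tissue and PhSpMo comparisons, so these comparisons are not independent of each other.

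**Figure D1:**
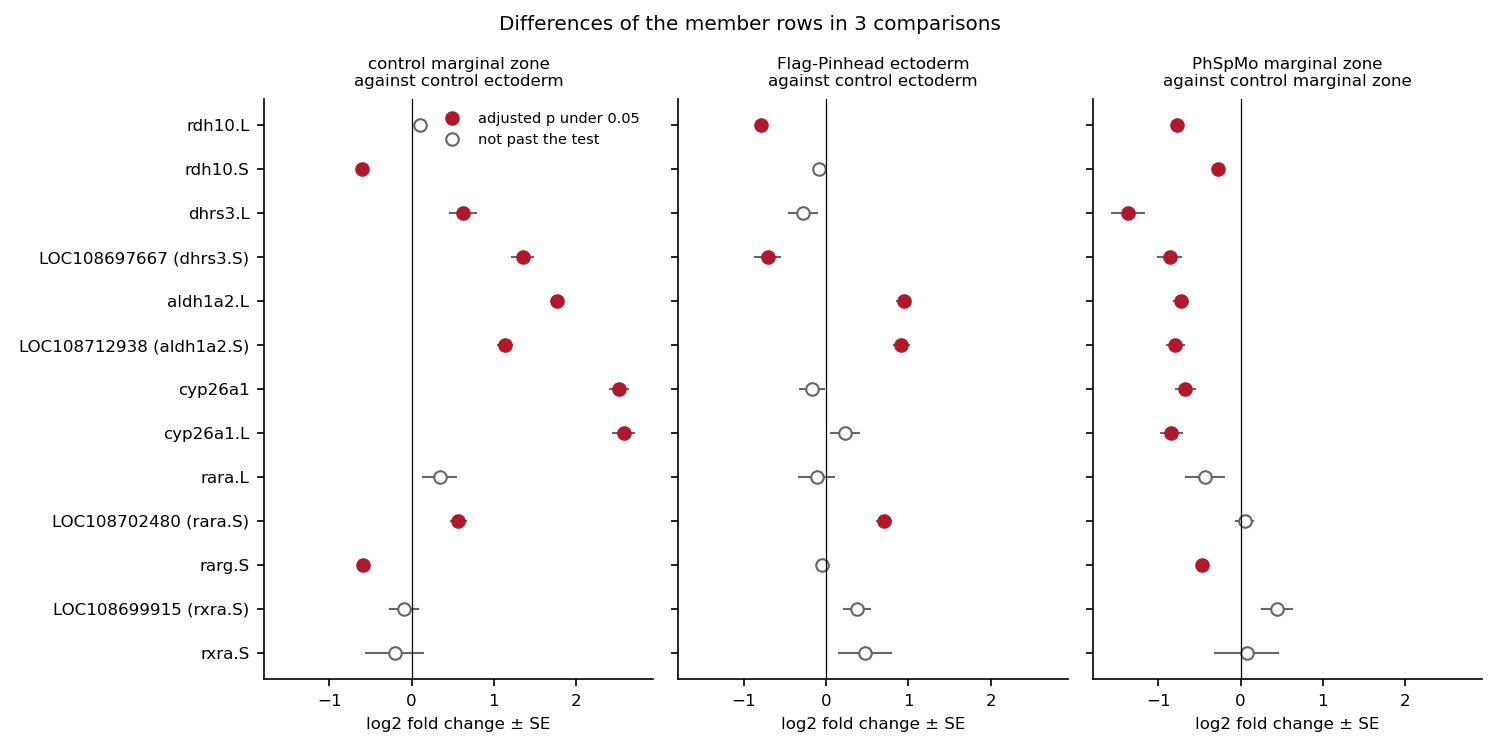
Log2 fold change with its SE (x axis) of each of the 13 member rows (y axis) in 3 comparisons; filled points have an adjusted p under 0.05 in edgeR's test. With PhSpMo the 9 filled points all lie below 0, while with Flag-Pinhead RNA 3 lie above and 2 below.

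The explants differed in tissue markers as well. With Flag-Pinhead RNA, 13 of 15 tested early mesoderm rows, 7 of 11 organizer rows, 4 of 10 endoderm rows and 7 of 8 neural plate rows rose, while 9 of 10 epidermis rows fell. Summed early mesoderm markers reached 795 to 807 CPM there, organizer markers went from 19.4 to 20.8 CPM in control ectoderm to 108 to 127 CPM, and endoderm markers from 2.39 to 3.64 CPM to 18.5 to 24.5 CPM. Epidermis markers stood at 2740 to 2821 CPM in control ectoderm and 1630 to 1823 CPM with Flag-Pinhead, and neural plate markers at 756 to 777 and 1406 to 1501 CPM. With PhSpMo, 8 of 15 early mesoderm, 3 of 11 organizer, 9 of 10 endoderm, 10 of 10 epidermis and 6 of 8 neural plate rows fell and none rose. Their summed levels in control and PhSpMo marginal zone were 2242 to 2358 and 1791 to 1856 CPM for early mesoderm, 295 to 302 and 253 to 256 CPM for organizer, 723 to 747 and 489 to 493 CPM for endoderm, 1449.5 to 1471 and 852 to 865 CPM for epidermis, and 1184 to 1228 and 1115 to 1161 CPM for neural plate. Of the defining markers, gsc.L and a mixer.S row (LOC100137681) were at 0 in control ectoderm, and none was at 0 in the other groups. The part of cell composition in the differences below was not tested, and in such bulk samples fewer cells of a type and less RNA per cell cannot be told apart.

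The L copy of rdh10, whose product oxidises retinol, stood at 116 and 118 CPM in control ectoderm, 71.5 and 64.5 CPM in Flag-Pinhead ectoderm, 126 and 125 CPM in control marginal zone and 77.2 and 70.2 CPM with PhSpMo. Both Flag-Pinhead samples and the summed PhSpMo unit lay below every control sample. Its level fell from 117 ± 1.55 to 68.0 ± 4.94 CPM with Flag-Pinhead RNA, a log2 fold change of -0.79 (SE 0.064, edgeR adjusted p = 2.56e-10). With PhSpMo it fell from 126 ± 0.317 to 73.7 CPM, -0.77 on the log2 scale (SE 0.076, edgeR adjusted p = 3.03e-08). The row was thus lower in both arms, although Pinhead was added in one and depleted in the other. The difference between the control tissues was 0.097 on the log2 scale (SE 0.061, edgeR adjusted p = 0.192).

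The S copy of rdh10 stood at 156 and 154 CPM in control ectoderm, 149 and 143 CPM with Flag-Pinhead, 105 and 98.9 CPM in control marginal zone and 82.6 and 85.9 CPM with PhSpMo. Here the tissues were apart and the Flag-Pinhead samples lay just under their controls. It was lower in control marginal zone than in control ectoderm by a log2 difference of -0.61 (SE 0.059, edgeR adjusted p = 3.11e-09). It fell with PhSpMo by 0.28 on the log2 scale (SE 0.072, edgeR adjusted p = 0.00676), a call that ended without control marginal zone replicate 1 (-0.23, adjusted p = 0.098). Flag-Pinhead RNA gave a log2 fold change of -0.092 (SE 0.057, edgeR adjusted p = 0.264).

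The product of dhrs3 returns retinaldehyde to retinol. Its L copy had 7.33 and 7.53 CPM in control ectoderm, 5.99 and 6.24 CPM with Flag-Pinhead, 9.43 and 13.3 CPM in control marginal zone and 5.42 and 3.44 CPM with PhSpMo. The PhSpMo unit was the lowest, and the control marginal zone values were the highest and most spread. With PhSpMo it fell 2.58-fold, a log2 fold change of -1.37 (SE 0.21, edgeR adjusted p = 2.78e-05), the largest change of a member row in that comparison. It was higher in control marginal zone than in control ectoderm by 0.62 (SE 0.17, edgeR adjusted p = 0.00329), a call that ended without control marginal zone replicate 2 (0.35, adjusted p = 0.192). With Flag-Pinhead RNA the log2 fold change was -0.28 (SE 0.19, edgeR adjusted p = 0.299).

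The S copy of dhrs3, LOC108697667, had 9.60 and 12.5 CPM in control ectoderm, 5.78 and 7.65 CPM with Flag-Pinhead, 28.2 and 27.8 CPM in control marginal zone and 13.2 and 17.6 CPM with PhSpMo. The control and Flag-Pinhead groups did not overlap. By mean level the order was control marginal zone, the PhSpMo unit, control ectoderm and Flag-Pinhead. Control marginal zone was 2.55-fold above control ectoderm, 1.35 on the log2 scale (SE 0.13, edgeR adjusted p = 4.89e-09). With PhSpMo it fell by 0.86 on the log2 scale (SE 0.15, edgeR adjusted p = 0.000157). With Flag-Pinhead RNA it fell from 11.0 ± 2.04 to 6.72 ± 1.32 CPM, a log2 change of -0.71 (SE 0.16, edgeR adjusted p = 0.00142), and this call ended without control ectoderm replicate 2 (-0.51, adjusted p = 0.067).

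Both copies of aldh1a2, which makes retinoic acid from retinaldehyde, moved in opposite directions in the gain and loss arms. The L copy stood at 21.2 and 18.6 CPM in control ectoderm, 38.7 and 38.2 CPM with Flag-Pinhead, 64.9 and 70.6 CPM in control marginal zone and 41.5 and 40.9 CPM with PhSpMo. The control and Flag-Pinhead groups did not overlap. The Flag-Pinhead mean and the PhSpMo unit lay near each other between the control groups. Control marginal zone was 3.39-fold above control ectoderm, 1.76 on the log2 scale (SE 0.087, edgeR adjusted p = 6.03e-15). With Flag-Pinhead RNA aldh1a2.L rose 1.93-fold from 19.9 ± 1.82 to 38.5 ± 0.378 CPM, 0.95 on the log2 scale (SE 0.092, edgeR adjusted p = 6.75e-09). With PhSpMo it fell from 67.7 ± 4.06 to 41.2 CPM, a log2 change of -0.72 (SE 0.096, edgeR adjusted p = 3.5e-06).

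The S copy, LOC108712938, stood at 17.1 and 17.7 CPM in control ectoderm, 30.2 and 35.4 CPM with Flag-Pinhead, 38.6 and 37.8 CPM in control marginal zone and 22.5 and 21.5 CPM with PhSpMo. Here the Flag-Pinhead samples reached closer to control marginal zone, and the PhSpMo unit lay closer to control ectoderm. Control marginal zone was 2.20-fold above control ectoderm, 1.14 on the log2 scale (SE 0.10, edgeR adjusted p = 6.27e-10). The S copy rose 1.89-fold with Flag-Pinhead RNA, 0.92 on the log2 scale (SE 0.10, edgeR adjusted p = 8.35e-08), and fell by 0.80 on the log2 scale with PhSpMo (SE 0.12, edgeR adjusted p = 1.2e-05). Both calls of both copies held in every alternative fit tried, and each copy was called in the same direction as the other.

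**Figure D2:**
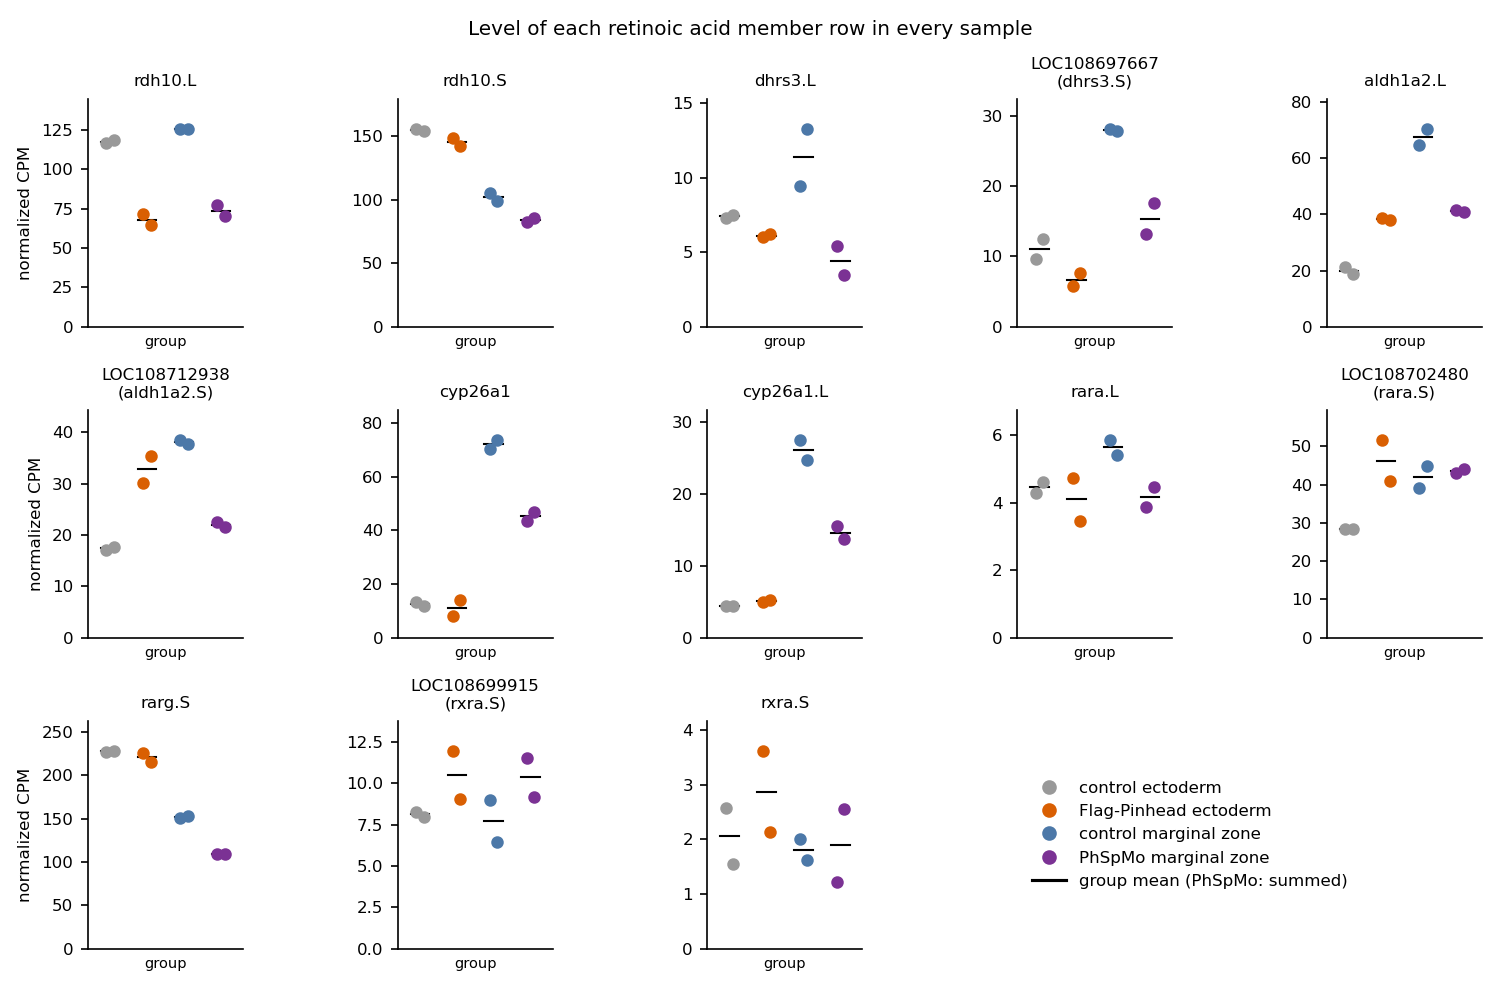
Normalized CPM (y axis, from 0) of the 13 member rows in each deposited sample (points) of the 4 groups (x axis, by colour), with the group mean as a line; for PhSpMo the line is the summed unit. The aldh1a2 panels have Flag-Pinhead ectoderm above control ectoderm and PhSpMo below control marginal zone, while in the cyp26a1 panels all 4 ectoderm samples lie far below the marginal zone samples.

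Expression of cyp26a1, whose product degrades retinoic acid, separated control marginal zone from control ectoderm most among the member rows and was not called in the gain arm. The row named cyp26a1 stood at 13.2 and 11.8 CPM in control ectoderm, 8.15 and 14.1 CPM with Flag-Pinhead, 70.3 and 73.8 CPM in control marginal zone and 43.6 and 46.9 CPM with PhSpMo. The Flag-Pinhead samples spanned their controls, and the PhSpMo unit lay below both samples of its control group. Control marginal zone was 5.74-fold above control ectoderm, 2.52 on the log2 scale (SE 0.13, edgeR adjusted p = 6.15e-15). With PhSpMo the level fell from 72.0 ± 2.47 to 45.2 CPM, -0.67 on the log2 scale (SE 0.13, edgeR adjusted p = 0.000415), a call that ended with DESeq2 (-0.68, adjusted p = 0.27).

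With Flag-Pinhead RNA the cyp26a1 row had a log2 fold change of -0.18 (SE 0.16, edgeR adjusted p = 0.463). The Flag-Pinhead samples were unlike each other here, and the repeat columns within each were alike, at 57 and 60 counts in the first and 109 and 90 in the second. Without Flag-Pinhead replicate 2 the row was called lower (-0.62, edgeR adjusted p = 0.00247), and without replicate 1 the value was 0.17 (adjusted p = 0.429). The direction in the gain arm thus rests on which sample is used.

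The cyp26a1.L row had 4.40 and 4.33 CPM in control ectoderm, 5.02 and 5.24 CPM with Flag-Pinhead, 27.5 and 24.7 CPM in control marginal zone and 15.5 and 13.7 CPM with PhSpMo. Control marginal zone was 5.97-fold above control ectoderm, 2.58 on the log2 scale (SE 0.14, edgeR adjusted p = 5.91e-14), and with PhSpMo the level changed by -0.84 on the log2 scale (SE 0.14, edgeR adjusted p = 0.000108). The Flag-Pinhead samples lay slightly above both controls, with a log2 fold change of 0.23 (SE 0.18, edgeR adjusted p = 0.383). In the tissue comparison and with PhSpMo both cyp26a1 rows were called in the same direction, and in the gain arm neither was.

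Among the receptors, rara.S, LOC108702480, was the only member row besides aldh1a2 called higher with Flag-Pinhead RNA. It stood at 28.4 and 28.5 CPM in control ectoderm, 51.8 and 40.8 CPM with Flag-Pinhead, 39.2 and 44.9 CPM in control marginal zone and 43.1 and 44.1 CPM with PhSpMo. Control ectoderm was below the other groups. Flag-Pinhead and control marginal zone samples overlapped, and the PhSpMo unit lay within both ranges. The level rose 1.63-fold with Flag-Pinhead, 0.70 on the log2 scale (SE 0.099, edgeR adjusted p = 3.78e-06), and was higher in control marginal zone than in control ectoderm by 0.57 (SE 0.10, edgeR adjusted p = 3.45e-05). With PhSpMo the log2 fold change was 0.050 (SE 0.11, edgeR adjusted p = 0.836).

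The L copy of rara stood at 4.29 and 4.62 CPM in control ectoderm, 4.74 and 3.47 CPM with Flag-Pinhead, 5.88 and 5.42 CPM in control marginal zone and 3.87 and 4.47 CPM with PhSpMo. The ectoderm groups overlapped, and control marginal zone lay above both of them and above the PhSpMo unit. No comparison of rara.L passed, with log2 values of -0.12 (SE 0.22) for Flag-Pinhead, -0.43 (SE 0.24) for PhSpMo and 0.34 (SE 0.21) between the tissues and edgeR adjusted p of 0.76, 0.246 and 0.18.

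The rarg.S row, of another retinoic acid receptor, stood at 227 and 228 CPM in control ectoderm, 226 and 215 CPM with Flag-Pinhead, 150.2 and 153 CPM in control marginal zone and 109.8 and 109.4 CPM with PhSpMo. The tissues were apart and PhSpMo lay below its controls. It was lower in control marginal zone than in control ectoderm by a log2 difference of -0.59 (SE 0.054, edgeR adjusted p = 1.26e-09) and fell further with PhSpMo, by 0.47 on the log2 scale (SE 0.067, edgeR adjusted p = 1.04e-05). With Flag-Pinhead the log2 fold change was -0.045 (SE 0.053, edgeR adjusted p = 0.596).

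The rows of rxra, the partner receptor, did not pass in any of these 3 comparisons. LOC108699915 had 8.29 and 7.98 CPM in control ectoderm, 11.98 and 9.07 CPM with Flag-Pinhead, 8.97 and 6.45 CPM in control marginal zone and 11.6 and 9.19 CPM with PhSpMo. The Flag-Pinhead samples and the PhSpMo unit lay above their own controls, with log2 fold changes of 0.37 (SE 0.17, edgeR adjusted p = 0.114) and 0.44 (SE 0.20, edgeR adjusted p = 0.131). It was called higher with Flag-Pinhead without that group's replicate 2 (0.56, adjusted p = 0.0204) and with PhSpMo in a fit of marginal zone libraries alone (0.45, adjusted p = 0.044). The difference between the control tissues was -0.090 (SE 0.18, edgeR adjusted p = 0.698).

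The table's own rxra.S row had 2.58 and 1.54 CPM in control ectoderm, 3.62 and 2.13 CPM with Flag-Pinhead, 2.01 and 1.61 CPM in control marginal zone and 1.23 and 2.55 CPM with PhSpMo. Control ectoderm overlapped both Flag-Pinhead ectoderm and control marginal zone, which did not overlap each other. The edgeR adjusted p of this row was 0.329 with Flag-Pinhead, 0.942 with PhSpMo and 0.653 between the tissues.

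Set against control marginal zone, Flag-Pinhead ectoderm was called higher for 3 member rows and lower for 6, where 59.7% of all tested genes were called, 31.5% higher and 28.2% lower. Tissue, stage label and experiment cannot be told apart in this comparison. The cyp26a1 row was 6.48-fold lower (log2 -2.70, SE 0.13, edgeR adjusted p = 3.59e-15) and cyp26a1.L 5.08-fold lower (log2 -2.34, SE 0.15, edgeR adjusted p = 4.21e-13). The dhrs3.S row LOC108697667 was lower by a log2 difference of -2.06 (SE 0.15, edgeR adjusted p = 9.85e-12), and dhrs3.L, rdh10.L and aldh1a2.L by -0.90, -0.88 and -0.82. Higher rows were rarg.S (0.54), rdh10.S (0.51) and LOC108699915 of rxra (0.46, edgeR adjusted p = 0.0288).

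In that comparison the call of LOC108699915 ended with DESeq2 (adjusted p = 0.151) and without Flag-Pinhead replicate 1 (0.304) or control marginal zone replicate 2 (0.379). The aldh1a2.S row LOC108712938 was the nearest to the threshold among the rows not called, at -0.22 (SE 0.097, edgeR adjusted p = 0.0551). It was called lower with the size factors of DESeq2 in edgeR (-0.23, adjusted p = 0.0401) and with 8 libraries by sample number (-0.22, 0.0403). The latter fit counts the PhSpMo samples as 2 units although they were as alike as repeat columns. With PhSpMo columns regrouped by last digit LOC108712938 was not called. Its log2 difference without Flag-Pinhead replicate 2 was -0.34. Without Flag-Pinhead replicate 2, rara.S and rxra.S were called higher (0.30 and 1.01, edgeR adjusted p = 0.00881 and 0.0205), and without replicate 1 rara.L was called lower (-0.69, adjusted p = 0.0251). Mean levels of both aldh1a2 rows, cyp26a1.L, rdh10.S and rarg.S after Flag-Pinhead RNA thus lay between those of control ectoderm and control marginal zone. Only aldh1a2.L among them was called against each control group. The cyp26a1.L, rdh10.S and rarg.S rows were not called against control ectoderm, nor was aldh1a2.S against control marginal zone. Mean levels of rdh10.L, both dhrs3 rows, cyp26a1 and rara.L lay below both control groups. Of these, only rdh10.L and dhrs3.S were called lower against each control group.

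Whether the copies of a gene responded alike was tested on the log2 ratio of L to S with limma over 635 pairs, which include rdh10 and aldh1a2. For rdh10 the L copy fell more than the S copy, by a log2 difference of -0.70 with Flag-Pinhead (SE 0.066, limma adjusted p = 8.85e-06) and -0.49 with PhSpMo (SE 0.081, limma adjusted p = 0.00169). Between the tissues the L to S ratio of rdh10 was higher in marginal zone by 0.70 (SE 0.066, limma adjusted p = 3.58e-06). For aldh1a2 the ratio was higher in marginal zone by 0.63 (SE 0.13, limma adjusted p = 0.00177), and its changes were 0.040 with Flag-Pinhead (SE 0.13, limma adjusted p = 0.872) and 0.079 with PhSpMo (SE 0.16, limma adjusted p = 0.814). A difference between copies was called in 24.6% of all pairs with Flag-Pinhead, 14.0% with PhSpMo and 48.0% between the tissues.

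In a wider set of 4123 pairs that also takes LOC rows, chosen after seeing the data, the log2 change of rara.L with Flag-Pinhead minus that of rara.S was -0.82 (SE 0.19, limma adjusted p = 0.00629), and this ended without control ectoderm replicate 2 (-0.77, adjusted p = 0.0646). The dhrs3 ratio was lower in marginal zone by -0.76 (SE 0.25, limma adjusted p = 0.0221), which ended without control ectoderm replicate 1 (-0.59, adjusted p = 0.176) or control marginal zone replicate 1 (-0.51, adjusted p = 0.222). The cyp26a1.L and cyp26a1 rows gave limma adjusted p of 0.189, 0.806 and 0.92 with Flag-Pinhead, with PhSpMo and between the tissues, and a call of 0.81 with Flag-Pinhead without that group's replicate 2 (adjusted p = 0.00861). In this wider set 20.1%, 8.49% and 45.6% of pairs were called in the same order.

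**Figure D3:**
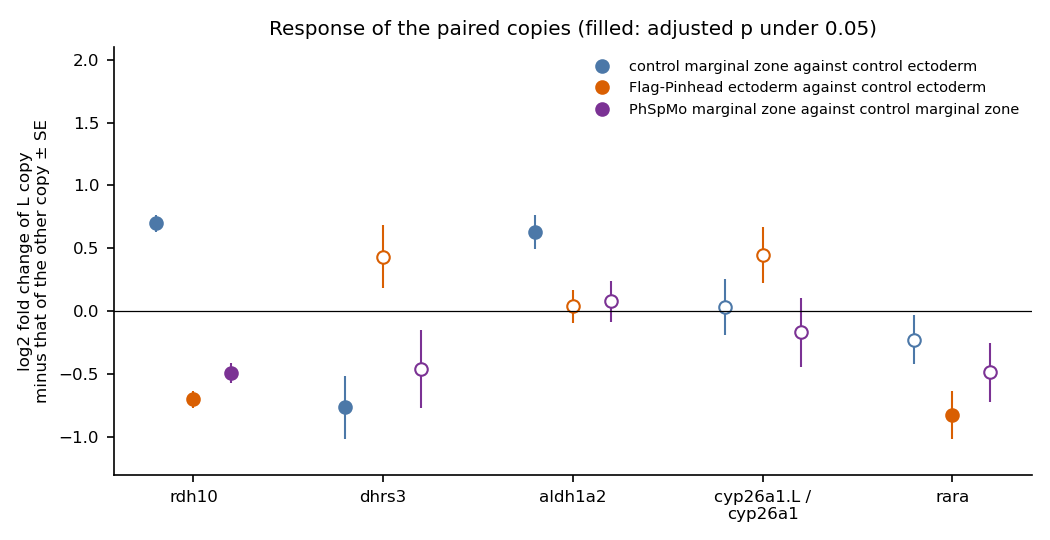
Log2 fold change of the L copy minus that of the other copy, with SE (y axis), for 5 gene pairs (x axis) in 3 comparisons by colour; filled points have a limma adjusted p under 0.05. The rdh10 points lie at 0.70 between the tissues and at -0.70 and -0.49 in the treated groups, and the aldh1a2 points of the treated groups lie near 0.

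Other genes of the pathway (carriers, storage enzymes, further receptors and their cofactors) were read from a list of 33 symbols, of which 30 were found in 44 rows and 26 rows were tested. With Flag-Pinhead 8 rows rose and none fell, where 15.5% and 11.9% of all tested genes were called in those directions. With PhSpMo 6 rose and 2 fell (8.22% and 10.5% of all genes), and between the tissues 8 were higher and 10 lower in marginal zone (26.5% and 26.3%). The list medians were 0.16, 0.13 and -0.10 on the log2 scale, beside 0.00031, 0 and -0.0029 for all tested genes, and 9 rows were higher and 7 lower in Flag-Pinhead ectoderm than in control marginal zone (31.5% and 28.2% of all genes). The L copy of crabp2, a cytoplasmic carrier that hands retinoic acid to its receptors, had 14.0 and 14.8 CPM in control ectoderm, 124 and 93.8 CPM with Flag-Pinhead, 16.9 and 18.3 CPM in control marginal zone and 33.1 and 32.2 CPM with PhSpMo. It rose in both arms, by 2.92 on the log2 scale (SE 0.11, edgeR adjusted p = 2.5e-17) and by 0.89 (SE 0.13, edgeR adjusted p = 1.54e-05).

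The coactivator row ncoa1.S, LOC108718303, rose with Flag-Pinhead from 4.60 and 3.19 to 16.7 and 16.8 CPM (log2 2.09, SE 0.17, edgeR adjusted p = 1.38e-10). It was also higher in control marginal zone than in control ectoderm (1.92, edgeR adjusted p = 4.54e-10), and it rose with PhSpMo from 16.3 and 13.5 to 22.3 and 20.0 CPM (0.51, edgeR adjusted p = 0.0201). Its other copy, ncoa1.L (LOC108717249), was not called with Flag-Pinhead, between the tissues or with PhSpMo. The log2 values of ncoa1.L were 0.53, 0.50 and 0.15 in that order (edgeR adjusted p = 0.106, 0.0821 and 0.766). The L copy of lrat, whose enzyme esterifies retinol for storage, went from 0.859 and 0.798 to 5.50 and 4.04 CPM with Flag-Pinhead (2.51, SE 0.35, edgeR adjusted p = 3.5e-06). The 2 rows that fell with PhSpMo were the copies of rxrb, another retinoid X receptor. The S copy of rxrb went the opposite way in the gain arm, from 62.8 and 65.7 to 90.1 and 79.7 CPM (0.40, SE 0.071, edgeR adjusted p = 8.29e-05), and from 54.1 and 53.6 to 39.2 and 35.3 CPM with PhSpMo (-0.53, SE 0.090, edgeR adjusted p = 8.98e-05).

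Both copies of the corepressor ncor1 rose with PhSpMo, ncor1.S by 0.52 (SE 0.074, edgeR adjusted p = 9.65e-06) and ncor1.L (LOC108707936) by 0.42 (SE 0.074, edgeR adjusted p = 0.000124). The L copy of ncor1 also rose with Flag-Pinhead RNA, from 42.7 and 45.2 to 54.4 and 54.3 CPM (0.31, edgeR adjusted p = 0.00155). Between the control tissues, both copies of the coactivator ncoa2 were lower in marginal zone, by a log2 difference of -1.65 for ncoa2.L (LOC100301960) and -1.35 for ncoa2.S, and ncor1.L was higher by 1.02.

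A list of 20 genes known to respond to retinoic acid in vertebrate embryos had 17 symbols in 28 rows, of which 18 were tested. With Flag-Pinhead 10 rows rose and none fell, where 15.5% and 11.9% of all genes were called in those directions. With PhSpMo 7 fell and 2 rose (10.5% and 8.22% of all genes), the latter being the copies of crabp2. Between the tissues 10 were higher and 4 lower in marginal zone (26.5% and 26.3% of all genes). The list medians were 0.91, -0.30 and 1.16 on the log2 scale, beside the same all-gene medians, and 8 rows were higher and 7 lower in Flag-Pinhead ectoderm than in control marginal zone (31.5% and 28.2% of all genes). The lists share 6 tested rows, those of crabp2, rarb and nrip1. The S copy of crabp2, LOC108700362, had few counts in marginal zone, 2 and 6 in controls and 13 and 26 with PhSpMo. Its log2 change with PhSpMo was 2.13 (SE 0.58, edgeR adjusted p = 0.00942).

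The S copy of hoxd1, a Hox gene activated by retinoic acid in gastrulae, had 2 counts in each control ectoderm sample and 161 and 134 counts with Flag-Pinhead, or 11.2 and 9.50 CPM. In marginal zone it stood at 5.41 and 5.87 CPM in controls and 0.323 and 0.638 CPM with PhSpMo, a log2 fold change of -3.54 (SE 0.35, edgeR adjusted p = 3.52e-08). Its L copy, LOC108701381, was at 0.808 and 0.456 CPM in control ectoderm, 15.5 and 11.0 CPM with Flag-Pinhead, 6.65 and 6.003 CPM in control marginal zone and 0.387 and 0.893 CPM with PhSpMo. The L copy changed by 4.35 (SE 0.28, edgeR adjusted p = 1.56e-12) and -3.28 (SE 0.35, edgeR adjusted p = 8.29e-08) on the log2 scale. Both hoxd1 rows thus had higher CPM in each Flag-Pinhead sample than in either control marginal zone sample, whereas the cyp26a1 rows of the same samples lay far below that tissue.

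The zinc finger gene znf703.S stood at 12.2 and 16.3 CPM in control ectoderm, 44.5 and 38.1 CPM with Flag-Pinhead, 60.0 and 54.5 CPM in control marginal zone and 31.4 and 33.5 CPM with PhSpMo. Its group means stood in the same order as those of aldh1a2.S, with log2 changes of 1.55 (SE 0.11, edgeR adjusted p = 3.39e-11) and -0.82 (SE 0.12, edgeR adjusted p = 1.31e-05). The order in aldh1a2.L differed, with the PhSpMo level (41.2 CPM) above the Flag-Pinhead mean (38.5 CPM). Between the tissues znf703.S and znf703.L were higher in marginal zone by 2.01 and 2.19 on the log2 scale. The homeobox gene meis3.L fell with PhSpMo from 13.4 and 10.4 to 4.97 and 5.17 CPM (-1.22, SE 0.17, edgeR adjusted p = 8.67e-06). Unlike znf703, meis3.L was lower in control marginal zone than in control ectoderm (log2 -1.07, SE 0.12, edgeR adjusted p = 6.87e-08).

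**Figure D4:**
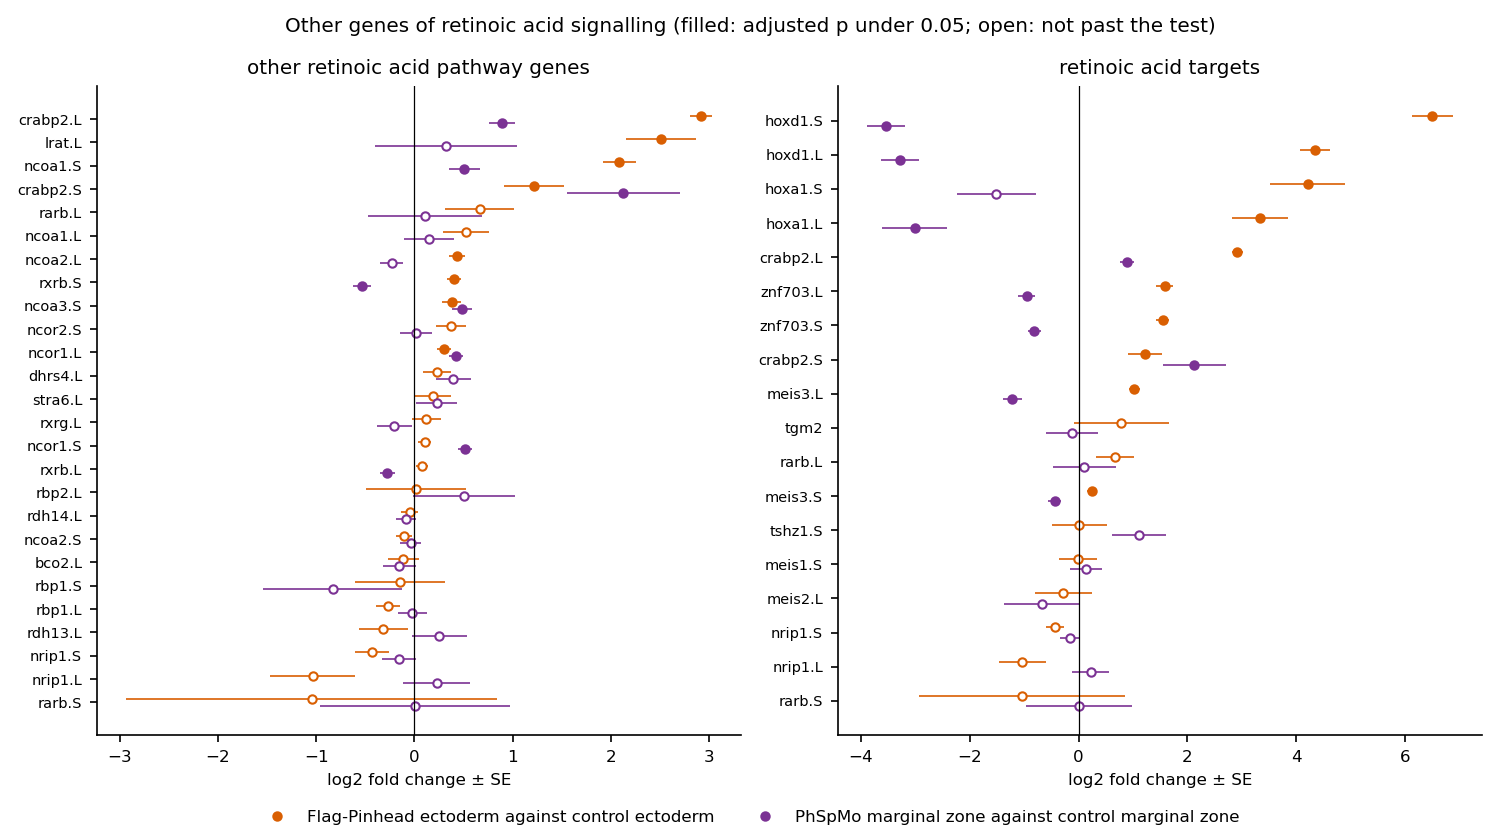
Log2 fold change with SE (x axis) of the tested rows (y axis) of the pathway list (left) and of the target list (right) with Flag-Pinhead RNA and with PhSpMo, by colour; filled points have an edgeR adjusted p under 0.05. Rows of hoxd1, znf703 and meis3 lie above 0 with Flag-Pinhead and below 0 with PhSpMo, and both crabp2 copies lie above 0 in both.

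The genes whose levels ran most alike to a member were found by the distance between centred log2 group means over the 4 groups. The 14473 candidate rows had a symbol, passed the low-count filter and had an average log2 CPM of at least 1. Members and the other copy of the same gene were left out. Among the nearest to aldh1a2.L were lmo4.2.L (distance 0.154) and adamts1.L (0.238). The levels of lmo4.2.L were 34.3 CPM in control ectoderm, 58.5 CPM with Flag-Pinhead, 117 CPM in control marginal zone and 66.9 CPM with PhSpMo. Nearest to cyp26a1 were hhex.S (LOC108697398, 0.118), man1c1.S (0.175) and sox9.S (0.177). In the same order of groups, hhex.S stood at 0.636, 0.560, 6.65 and 3.79 CPM and man1c1.S at 0.373, 0.388, 4.91 and 2.60 CPM. Their ectoderm levels were near the 0.5 CPM added before taking logs, so their distances depend on that setting. The levels of sox9.S were 3.71, 3.20, 19.6 and 13.7 CPM. Nearest to dhrs3.S were gata3.S (0.177), znf219.S (LOC108707050, 0.179) and lmo4.2.S (0.237). The Flag-Pinhead samples of gata3.S were unlike each other, at 2.51 and 0.780 CPM, the lower near the added 0.5 CPM. With 4 points per gene these distances only describe the group means.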

How the data were processed

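The authors deposited raw counts per gene in 16 columns, 2 for each of 8 samples, with no normalization. The submitters' processing notes name CASAVA 1.8, HISAT2, SAMtools and HTSeq; build and counting options were not given in the sources used here. Columns of a sample were added, and 2 mistyped column names were assigned to control marginal zone sample 1, the only sample without columns of its own. The labels' protocols describe oligo(dT) enrichment and state no strand marking, so antisense reads cannot be told apart. Members and lists were chosen with earlier results of these data known.

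LOC identifiers were looked up by NCBI gene number in a RefSeq table of X. laevis version 10.1, which held 21071 of 24441 and gave 11186 a symbol. Samples of a group were compared by the mean chi-square of their counts over genes with at least 50 counts. This was 1.43 for the PhSpMo samples, as between columns of other samples (1.29 to 1.46), against 2.05 and 2.27 between control samples. Between the Flag-Pinhead samples it was 11.9, injected RNA included. The median chi-square over its expected value was 2.92 for Flag-Pinhead, 1.98 for control ectoderm and 1.86 for control marginal zone. Columns named for a PhSpMo sample gave means of 2.38 and 2.44, PhSpMo columns sharing a last digit 1.30 and 1.36, and PhSpMo regrouped by that digit 3.41. PhSpMo columns were summed to 1 unit, leaving 7 units and 3 residual degrees of freedom.

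Tests used edgeR 4.0.16 in R 4.3.3 (filterByExpr with a minimum of 10 counts, TMM, 1 mean per group over all groups, quasi-likelihood F test, two-sided, Benjamini-Hochberg adjustment at 0.05). SE is the size of the log2 fold change over the root of F. TMM factors were 0.923 and 0.927 for the Flag-Pinhead libraries. Copies were compared with limma 3.58.1 on log2 CPM with a prior count of 2, and likeness used log2(CPM + 0.5). Scripts were tested on simulated data. Named genes are all members, up to 4 called genes per list and comparison with the lowest p, of which the text gives a part, and the 3 genes most alike to the highest row of aldh1a2, cyp26a1 and dhrs3; a withheld item is not reported here. Alternatives were DESeq2 1.42.0, its size factors in edgeR, no filter, robust spread, 8 libraries, PhSpMo columns regrouped by last digit, a replicate block, no pnhd, each tissue alone, another prior count, wider pairs and leaving out each control or Flag-Pinhead replicate. No PhSpMo sample was left out.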

Additional observations from a re-analysis of the deposited data

How the results depend on the processing

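Of 826 recomputed values of single member rows and of the cyp26a1, dhrs3 and rara pairs, 796 kept their direction and side of the threshold. Of 313 counts and rdh10 or aldh1a2 pair differences, 296 did so or stayed within 1.5 times. DESeq2 called 2247 genes higher and 1645 lower with Flag-Pinhead (edgeR 3441 and 2647) and 812 higher with PhSpMo (edgeR 1828). Leaving out each replicate gave 1639 to 2672 genes lower with Flag-Pinhead, and 998 to 2331 higher and 1473 to 2926 lower with PhSpMo; the low counts came without control ectoderm replicate 1 (1690) or 2 (1639) and without control marginal zone replicate 1 (1100 higher) or 2 (998 higher, 1473 lower). Member rows called lower with Flag-Pinhead then numbered 1 to 3, and those higher in Flag-Pinhead ectoderm than in control marginal zone 2 to 5, the highest without Flag-Pinhead replicate 2. Marginal zone libraries alone gave 1 member row higher with PhSpMo. Of copy pairs 14.0% were called with PhSpMo, 8.49% with wider pairs and 6.18% to 17.5% without single replicates (control marginal zone replicate 1, 6.18%, or 2, 7.08%). Deviations of same-numbered samples showed little correlation (-0.033 in ectoderm and -0.0089 in marginal zone). The marginal zone value cannot show whether samples were paired, because the PhSpMo samples differ no more than repeat columns. Whether samples share a clutch is not known. With a replicate block 22.5% of pairs were called with PhSpMo. In that fit LOC108712938 was called lower in Flag-Pinhead ectoderm than in control marginal zone (-0.22, edgeR adjusted p = 0.042). The block fit counts the PhSpMo samples as 2 units, although they differ no more than repeat columns. Without single replicates the aldh1a2 copy difference with Flag-Pinhead ran from -0.086 to 0.17, and values not past the threshold with all samples ran across 0: from -0.62 to 0.17 for cyp26a1 and -0.36 to 0.092 for rara.L with Flag-Pinhead, -0.042 to 0.16 for LOC108702480 and -0.085 to 0.23 for rxra.S with PhSpMo, -0.52 to 0.22 for rxra.S and -0.33 to 0.14 for LOC108699915 between tissues, -0.045 to 0.30 for LOC108702480 in Flag-Pinhead ectoderm against control marginal zone, and -0.078 to 0.15 (with -0.039 between) for the cyp26a1 pair between tissues. Counts as low as 19 per sample limit rxra.S. Only control and Flag-Pinhead samples were left out, since PhSpMo was 1 unit, so ranges with PhSpMo do not cover its own samples. For settings other than left-out samples the cause was not tested.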
